A study of Rattus norvegicus with 9 samples.

Results

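Advanced glycation end products (AGEs), proteins modified by sugars, were added to cultured rat vascular smooth muscle cells of the thoracic aorta, and gene expression was set against that of cells given bovine serum albumin (BSA). The genes described were chosen by level: 8532 of the 32792 in the deposited table, each reaching 1 FPKM in 3 or more of the study's 9 libraries. FPKM is the number of fragments on a gene scaled for the gene's length and for the library's total. Both groups held 3 libraries and both carried an empty vector. The AGEs group received 200 µg/mL for 24 h, and the design text names BSA as the treatment of the other group, whose own labels name only the transfection. A further 3 libraries, of cells that overexpressed cathepsin D (CTSD) and received the same AGEs, entered the fit for its estimate of spread, and their levels are given where they bear on a gene. Groups without a vector are not analysed here. Neither the promoter of the vector nor the number of cell preparations behind the libraries is stated, so the p-values rest on library-to-library spread, which may be technical.

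AGEs accumulate with age and in diabetes and bind the receptor AGER on vascular cells. Aortic smooth muscle cells in culture can leave the contractile state for a proliferating, matrix-making one. ATF4, a transcription factor translated when amino acids run short or unfolded protein builds up, drives genes of amino acid synthesis, uptake and tRNA charging, and XBP1 and ATF6 drive the chaperones of the endoplasmic reticulum. The cytosol has its own chaperones under the factor HSF1, and the proteasome degrades proteins tagged with ubiquitin.

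The 9 libraries held 4492417 to 5341647 fragments assigned to genes, worked out from the steps of the FPKM values. At those depths 3 fragments on a 1-kilobase gene gave 0.562 to 0.668 FPKM. Of the tested genes 7516 reached 1 FPKM in all 9 libraries. Another 130 reached it in exactly 3, with a median mean level of 0.868 FPKM, against 0.723 FPKM for the 196 genes just outside that reached it in exactly 2. Several defining contractile markers of smooth muscle were low. Acta2, smooth muscle actin, stood at 8.45 ± 1.67 FPKM (SD, n = 3) with BSA and 8.25 ± 0.398 with AGEs, beside 14442 ± 44.1 and 16651 ± 715 FPKM for the cytoplasmic actin gene Actb. Myh11, smooth muscle myosin, had 12 fragments over the 6 empty-vector libraries, and Myocd, the coactivator of the contractile genes, and Ager were listed at 0, which does not show that they were silent. The 18 contractile markers together summed to 431 to 451 FPKM with BSA and 384 to 404 FPKM with AGEs, lower in every AGEs library, and without Cnn2, the most abundant, to 269 to 303 and 251 to 257 FPKM. Their part in the results was not tested. Of 9 endothelial markers none passed the filter (summed level at most 0.137 FPKM in any library), and of 10 macrophage markers 1 did, Cd68. The 9 fibroblast markers summed to 10.6 to 12.7 FPKM with BSA and 10.9 to 12.9 FPKM with AGEs. Among 12 epithelial and neural markers the neural adhesion gene Ncam1 alone passed, at 263 ± 4.13 FPKM with BSA and 197 ± 10.3 with AGEs. In bulk RNA, fewer cells of a type and less RNA per cell cannot be told apart.

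The response was wide and shallow, with rises among abundant genes and deeper falls among less abundant ones. Calls rest on limma, with p adjusted by Benjamini and Hochberg's method over all 8532 genes and a threshold of 0.05. By that rule 15.0% of tested genes were called, 6.05% higher with AGEs and 8.92% lower. The 516 genes that rose did so by a median of 0.29 on the log2(FPKM + 1) scale, a scale that understates changes of genes near 1 FPKM, and the 761 that fell had a median of -0.44. Of the genes that rose, 2 did so by 1 log2 unit or more, Txnip and the gene model AABR07052085.1, which had 3 fragments with BSA and 24 with AGEs, and 25 fell by as much. Among the 1169 tested genes with a mean of at least 100 FPKM, 21.7% rose and 10.3% fell, whereas of the 7363 genes under that level 3.56% rose and 8.71% fell. The size of a called change also went with level. With both directions together its median was 0.695 log2 units below 5 FPKM and 0.225 at 500 FPKM and above. Whether level alone gives the deeper falls was not tested. The balance rests on scaling: of the called genes 40.4% were higher as deposited and 58.9% with median-of-ratios scaling (749 higher, 523 lower), which moved the median of all genes from -0.06 to -0.00. Gene models of the risers had a median length of 1823 bases and those of the fallers 2452 bases, against 2061 bases for all tested genes. Whether length or level has a part in single groups was not tested beyond the fit with the length trend removed, whose counts are given with each group where they moved by over 1.5 times. In 32.5% of tested genes the AGEs and BSA libraries did not overlap (12.8% higher, 19.8% lower). Of the called genes 561, 6.58% of those tested, were also called in each of 14 alternatives run on the same genes. The fits that left out a CTSD library, also run on these genes, were not among the 14.

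**Figure D1:**
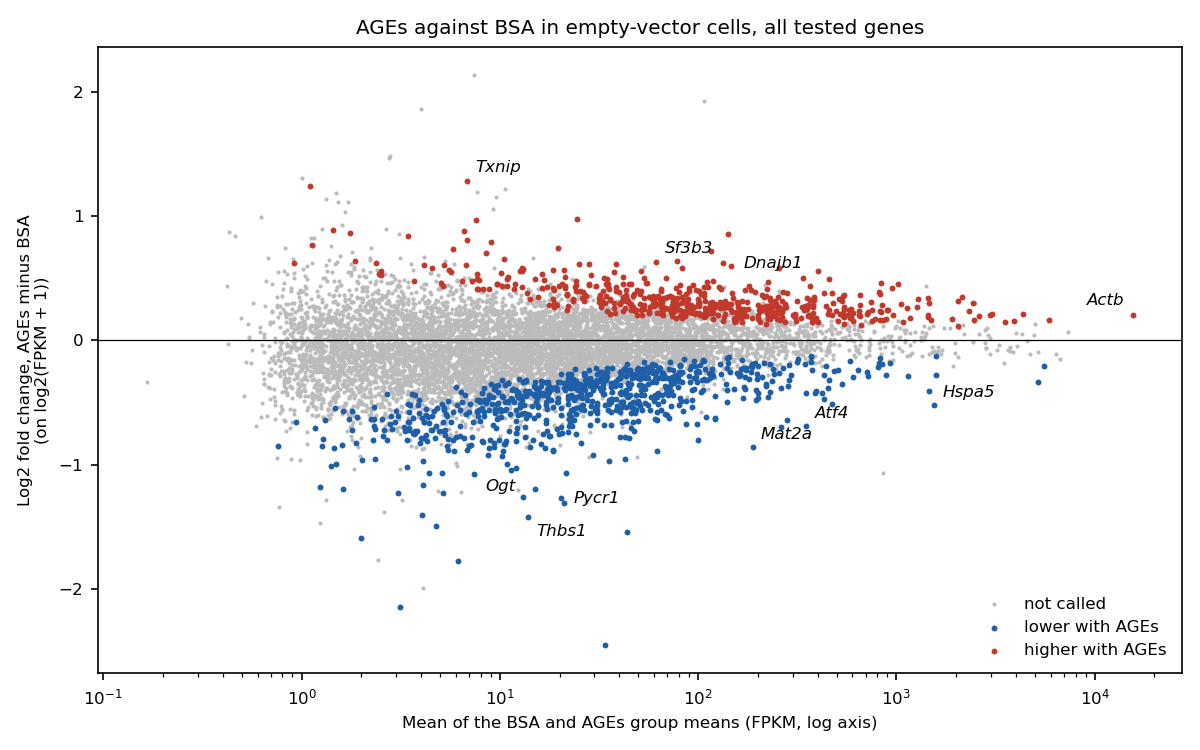
Log2 fold change of each tested gene, AGEs minus BSA on log2(FPKM + 1), against the mean FPKM of both groups on a log axis, with called genes in red (higher) and blue (lower) and the others in grey. The 516 red points gather at high levels and small changes, and the 761 blue points reach further from 0.

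**Figure D2:**
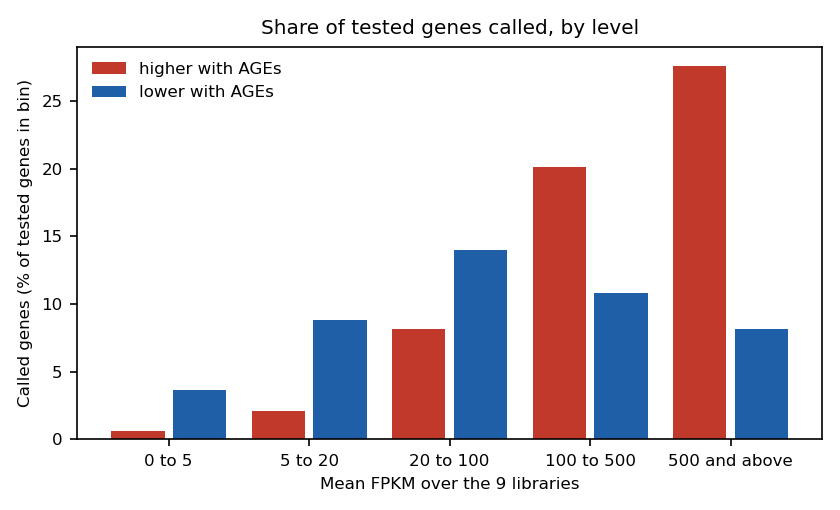
Share of tested genes called higher (red) or lower (blue) with AGEs, in percent of the genes of each bin of mean FPKM over the 9 libraries. Below 5 FPKM 16 of 2524 genes rose and 91 fell, and at 500 FPKM and above 68 of 246 rose and 20 fell.

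The 4 genes taken as markers of the comparison each separated the groups. They were chosen with earlier results of these data known, so their separation describes the data and is no independent support. Txnip (ENSRNOG00000021201, chromosome 2, 198683159 to 198686974 as deposited), an inhibitor of thioredoxin that responds to glucose, read 3.15, 3.59 and 3.88 FPKM with BSA and 11.5, 9.45 and 9.23 with AGEs. All 3 AGEs libraries lay above all 3 BSA libraries, a 2.85-fold difference of means (log2 fold change 1.28, SE 0.12, limma adjusted p = 0.000242). Thbs1 (ENSRNOG00000045829, chromosome 3, 109862117 to 109873466), which encodes the secreted matricellular protein thrombospondin-1, read 21.9, 20.7 and 19.3 FPKM with BSA and 7.67, 7.03 and 6.56 with AGEs. Its groups lay well apart, with a log2 fold change of -1.42 (SE 0.14, limma adjusted p = 0.000242). Atf4 (ENSRNOG00000017801, chromosome 7, 121480723 to 121482772) read 442, 423 and 438 FPKM with BSA and 269, 274 and 265 with AGEs, and had the smallest p of the comparison (-0.69, SE 0.04, limma adjusted p = 2.75e-05). Pycr1 (ENSRNOG00000036682, chromosome 10), the last enzyme of proline synthesis, read 32.3, 26.0 and 29.2 FPKM with BSA and 12.2, 12.1 and 10.2 with AGEs, again without overlap (-1.27, limma adjusted p = 9.34e-05).

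**Figure D3:**
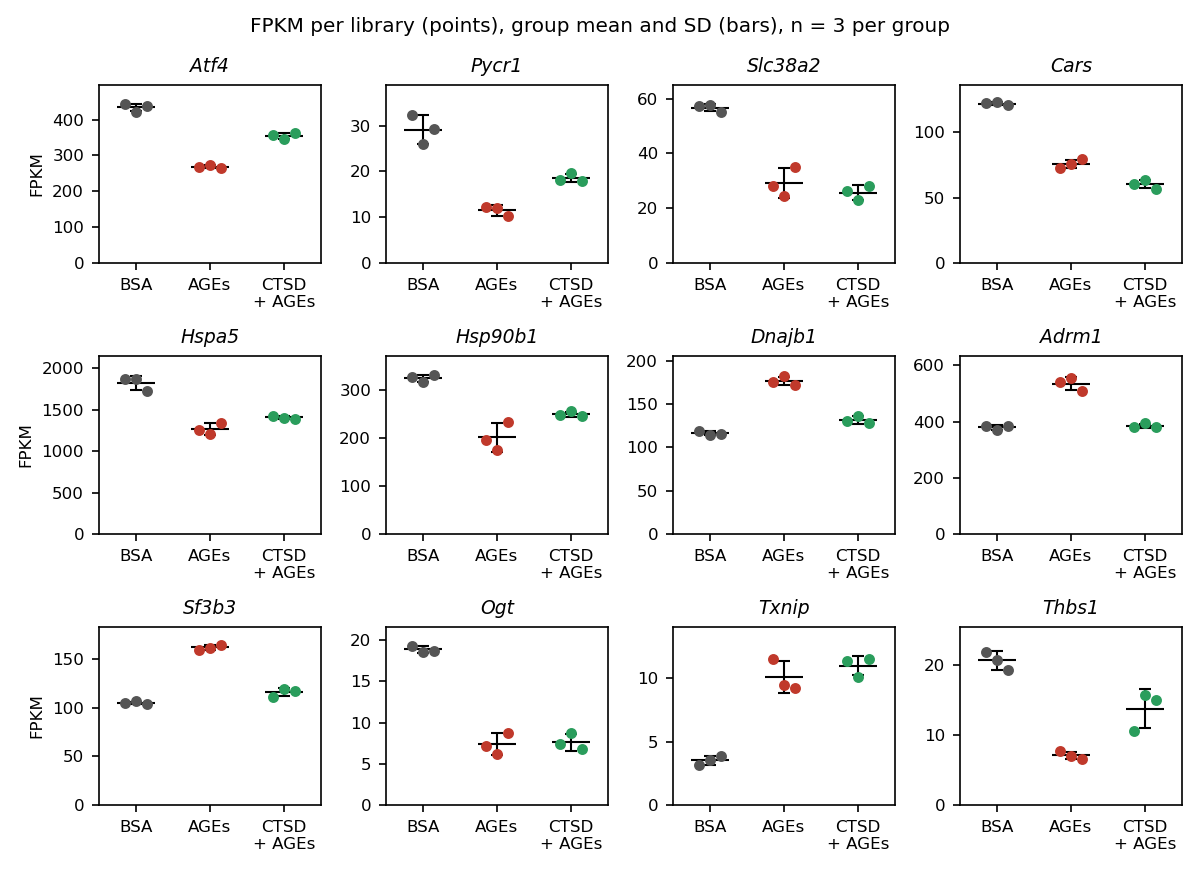
FPKM of 12 genes in each library (points) with the mean and SD of each group of n = 3 (bars), for the BSA and AGEs groups of the empty vector and the CTSD group, on linear axes from 0. In each panel the AGEs points lie wholly above or wholly below the BSA points, as for Txnip at 9.23 to 11.5 against 3.15 to 3.88 FPKM. The genes were chosen with results of these data known.

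Genes of amino acid supply that ATF4 is known to drive were lower with AGEs, together with Atf4. Of 27 tested genes on that list, which counts Atf4 itself, 10 fell and 0 rose, where 8.92% of all tested genes fell. The median of the list was -0.25 against -0.06 for all genes. The fallers were 6 of 13 synthesis genes, 2 of 5 transport genes and 2 of 4 transcription factors, Atf4 and Atf5. Of 5 tested members listed for feedback 0 were called. No empty-vector library, left out in turn, brought the fallers of the whole list below 9. Slc38a2, the SNAT2 importer of neutral amino acids, read 57.2, 57.8 and 55.2 FPKM with BSA and 28.0, 24.3 and 35.0 with AGEs. The AGEs libraries were all lower but spread more widely, and the log2 fold change was -0.95 (SE 0.12, limma adjusted p = 0.000924). Atf5, a related transcription factor, went from 56.9 ± 7.49 to 32.5 ± 2.93 FPKM (SD, n = 3). Asns, asparagine synthetase, read 23.0, 21.4 and 18.2 FPKM with BSA and 13.3, 10.2 and 12.5 with AGEs, without overlap. The serine route fell at 2 of its enzymes, Phgdh from 399 ± 5.14 to 297 ± 11.8 FPKM and Psat1 from 446 ± 7.50 to 337 ± 26.4 FPKM. Shmt2, which passes the serine carbon to folate in mitochondria, went from 77.3 ± 1.44 to 52.2 ± 3.24 FPKM, and the alanine transaminase Gpt2 from 18.6 ± 0.685 to 12.5 ± 0.806 FPKM. The glycine transporter Slc6a9 had the smallest of these falls (-0.27, limma adjusted p = 0.0351, 0.0907 with median-of-ratios scaling and 0.127 after quantile normalization). Its call also ended when any 1 of the 6 empty-vector libraries was left out, with the highest adjusted p, 0.113, without AGEs replicate 1. The proapoptotic factor Ddit3, which ATF4 also drives, was not called at 5.16 ± 1.41 and 4.11 ± 1.34 FPKM (-0.28, limma adjusted p = 0.434).

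The enzymes that load amino acids onto tRNAs were lower in the cytosol, whereas no enzyme of mitochondria passed the test. Of 22 cytosolic aminoacyl tRNA synthetases 10 fell and 1 rose (median -0.21), where 8.92% of all tested genes fell and 6.05% rose. Of 11 mitochondrial ones 0 were called by limma, at a median of 0.00, 0 with median-of-ratios scaling or quantile normalization and 1, a faller, with voom weights. Cars, the cysteine enzyme, read 123, 123 and 121 FPKM with BSA and 72.9, 75.8 and 79.2 with AGEs. The groups lay far apart and the log2 fold change was -0.68 (SE 0.05, limma adjusted p = 9.34e-05). Iars1, for isoleucine, went from 24.4 ± 0.652 to 14.6 ± 2.22 FPKM, Lars1, for leucine, from 27.7 ± 1.02 to 17.5 ± 0.696, and Yars1, for tyrosine, from 84.6 ± 0.540 to 55.5 ± 0.682. Eprs, for glutamate and proline, went from 55.1 ± 1.21 to 38.8 ± 3.81 FPKM. The other fallers were Nars1, Aars, Sars1, Tars1 and Vars1, by 0.45 to 0.24 on the log2 scale. Of these the call of Tars1 ended without BSA replicate 1 (limma adjusted p = 0.0571) or AGEs replicate 1. That of Vars1 ended without BSA replicate 1 or 2 or AGEs replicate 1, 2 or 3 (0.116 without BSA replicate 2) and with median-of-ratios scaling (0.101). Kars, the lysine enzyme, rose from 162 ± 8.10 to 193 ± 1.72 FPKM (0.25, limma adjusted p = 0.00873). The risers were 2 without BSA replicate 1, with median-of-ratios scaling or after quantile normalization. Xpot, which carries tRNAs out of the nucleus, fell from 51.1 ± 1.86 to 41.3 ± 1.62 FPKM (-0.30, limma adjusted p = 0.0108).

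Promoters were searched for the composite element that ATF4 binds with C/EBP partners, spelled TGATGNAA, on both strands of the 250 bases before each gene's start in RefSeq (GRCr8). Of 27457 promoters 3.27% held it, and of the 6249 matched to tested genes 1.65%. It stood in 4 of 11 called synthetase promoters and in 1 of 19 that were not called, Mars1 (-0.27, limma adjusted p = 0.125). Those counts pool cytosolic and mitochondrial enzymes. The called ones were all cytosolic, so the 2 sets differ in compartment as well as in call. In all, 8 motifs were searched. TGACNNNGC also stood in 4 of 11 called synthetase promoters, and in 3 of 19 not called. CACGTG stood in 3 called and 1 uncalled, GGAATG in 1 and 4, GTAAACA in 0 and 1, and the rest in none. Over tested genes the shares of these were 12.9%, 8.93%, 9.41% and 1.86%, in that order. On the amino acid list the element stood in 1 of 10 called promoters, Pycr1, and in 2 of 14 that were not called, Chac1 and Got1. The stretches below show the element in capitals, read along the gene's strand 5′ to 3′, for 3 of the called genes that hold it. In the last 2 it lies in reverse, as TTGCATCA. A match is a description of letters, neither a bound site nor a cause.
Pycr1, minus strand, chr10:106420921-106420958: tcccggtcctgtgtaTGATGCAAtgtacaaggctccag
Iars1, minus strand, chr17:15193654-15193691: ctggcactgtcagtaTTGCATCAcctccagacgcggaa
Tars1, minus strand, chr2:62114807-62114844: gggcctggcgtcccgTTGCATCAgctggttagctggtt
Beside these 3 stretches, the log2 fold changes were -1.27 for Pycr1, -0.71 for Iars1 and -0.27 for Tars1.

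In the endoplasmic reticulum, genes of protein folding were lower across chaperones, oxidases and regulators. Of 39 tested genes 18 fell and 1 rose, with a median of -0.26, where 8.92% of all tested genes fell and 6.05% rose. The 12 chaperones alone had 8 fallers and a median of -0.39. Hspa5, the abundant chaperone BiP, read 1869, 1874 and 1723 FPKM with BSA and 1257, 1209 and 1343 with AGEs. No AGEs library came near a BSA library, and the log2 fold change was -0.52 (SE 0.05, limma adjusted p = 0.000172). Hsp90b1, the HSP90 of this compartment, went from 324 ± 7.28 to 201 ± 29.6 FPKM, where AGEs replicate 3 at 233 FPKM was the nearest to BSA. Of the lectin chaperones, Calr went from 1657 ± 47.5 to 1252 ± 23.4 FPKM and Canx from 262 ± 7.97 to 209 ± 25.1 FPKM (-0.33, limma adjusted p = 0.015, but not called without BSA replicate 2 or AGEs replicate 1, at 0.0565 without the latter). Hyou1, the exchange factor of BiP, went from 260.0 ± 8.58 to 189 ± 4.17 FPKM, and Manf, a secreted stress factor, from 501 ± 12.7 to 360.3 ± 1.28 FPKM. Among regulators, Xbp1 read 79.6, 66.7 and 65.0 FPKM with BSA and 53.2, 52.0 and 48.3 with AGEs, without overlap (-0.45, limma adjusted p = 0.00491). Creb3l1, a membrane-bound factor that drives collagen secretion, went from 42.2 ± 0.549 to 28.4 ± 1.35 FPKM (-0.56, limma adjusted p = 0.000295). For export and degradation, Herpud1 went from 37.1 ± 1.23 to 25.0 ± 3.03 FPKM and Sel1l from 31.9 ± 1.54 to 23.3 ± 1.57 FPKM. The riser was Vcp, the cytosolic ATPase that pulls proteins out of this compartment, from 496 ± 12.4 to 577 ± 16.8 FPKM (0.22, limma adjusted p = 0.00502, and 0.0836 with quantile normalization). The fallers were 14 with median-of-ratios scaling and 11 without BSA replicate 2. Of 30 genes of translocation and the COP coats 3 fell and 0 rose, at a median of -0.02. The fallers of that list were 1 without BSA replicate 1, BSA replicate 3, AGEs replicate 1 or AGEs replicate 2, and the risers 1 without AGEs replicate 3. Median-of-ratios scaling gave 1 riser and 1 faller there, replicate as a block 0 and 1, and voom weights 1 and 5.

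The endoplasmic reticulum stress element, which is CCAAT, then 9 bases of any kind, then CCACG and is bound by ATF6 with NF-Y, was searched on both strands and was rare, in 21 of 27457 promoters (0.0765%) and 11 of the 6249 of tested genes (0.176%). It stood in 7 of 576 promoters of genes that fell and 0 of 395 of genes that rose. Folding genes held 7 of the 11, in 6 of 17 called promoters and 1 of 14 not called. The 6 called genes are shown with the element in capitals, in the gene's 5′ to 3′ direction, since all 6 fell. It reads forward in the first 4 and in reverse, from CGTGG to ATTGG, in the other 3.
Xbp1, plus strand, chr14:84604543-84604591: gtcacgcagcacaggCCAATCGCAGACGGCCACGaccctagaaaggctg
Hspa5, plus strand, chr3:38452958-38453006: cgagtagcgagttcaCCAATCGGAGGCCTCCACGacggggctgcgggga
Hsp90b1, minus strand, chr7:23012436-23012484: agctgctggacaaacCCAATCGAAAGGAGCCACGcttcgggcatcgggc
Canx, minus strand, chr10:35158054-35158102: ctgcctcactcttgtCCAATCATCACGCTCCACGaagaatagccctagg
Hsp90b1, minus strand, chr7:23012332-23012380: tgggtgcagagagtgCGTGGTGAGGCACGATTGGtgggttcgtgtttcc
Calr, plus strand, chr19:40213120-40213168: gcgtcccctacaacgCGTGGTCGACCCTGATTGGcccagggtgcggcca
Ero1b, plus strand, chr17:92941443-92941491: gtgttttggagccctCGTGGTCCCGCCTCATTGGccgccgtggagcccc
Hsp90b1 holds 2 copies and had the largest fall of the 6, by 0.70 on the log2 scale. Ero1b, an oxidase that supplies disulfide bonds, went from 17.4 ± 0.962 to 13.1 ± 1.74 FPKM (-0.39, limma adjusted p = 0.0293, but not called without BSA replicate 1, 2 or 3 or AGEs replicate 1 or 2, at 0.104 without AGEs replicate 1). The promoter with the element that was not called belongs to Creld2, which had 12 fragments with BSA and 18 with AGEs.

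Chaperones of the cytosol went the other way from those of the endoplasmic reticulum. Of 29 tested cytosolic heat shock and chaperonin genes 17 rose and 1 fell, where 6.05% of all tested genes rose, with a median of 0.25. The median level of the list was 192 FPKM, in the range where 21.7% of genes rose. Dnajb1, the HSP40 partner of HSP70, read 119, 114 and 116 FPKM with BSA and 176, 182 and 172 with AGEs. The groups lay apart by over 50 FPKM, and the log2 fold change was 0.60 (SE 0.05, limma adjusted p = 7.03e-05). Hspa8, the constitutive HSP70, went from 809.8 ± 24.0 to 1087 ± 43.9 FPKM (0.42, limma adjusted p = 0.0349, but not called when any 1 of the 6 empty-vector libraries was left out, at up to 0.106 without AGEs replicate 1). Hsp90ab1 went from 167 ± 5.04 to 218 ± 14.4 FPKM, and Stip1, which links HSP70 to HSP90, from 1137 ± 17.5 to 1434 ± 31.4 FPKM. The small heat shock gene Hspb1 went from 243 ± 10.4 to 317 ± 21.3 FPKM. Of the chaperonin that folds actin and tubulin, Tcp1, Cct3, Cct4, Cct5, Cct7 and Cct8 rose by 0.15 to 0.32, though Cct7 was not called without BSA replicate 1, 2 or 3 or AGEs replicate 1 or 2 (limma adjusted p = 0.0938 without AGEs replicate 1). Hsf1, the factor behind the heat shock response, went from 231 ± 5.01 to 275 ± 1.61 FPKM (0.25, limma adjusted p = 0.00179). The faller was Hspa2, from 181 ± 9.67 to 155 ± 5.73 FPKM (-0.22, limma adjusted p = 0.0174, 0.0706 with median-of-ratios scaling). Without BSA replicate 3 the risers were 11, and the fallers were 0 without BSA replicate 1, BSA replicate 2 or AGEs replicate 1 and 2 without AGEs replicate 3. Of 8 mitochondrial chaperones and proteases 1 was called, the protease Lonp1, from 17.7 ± 1.02 to 13.2 ± 0.476 FPKM, and Hspd1, HSP60, had a log2 fold change of -0.05 (limma adjusted p = 0.687). The fallers of that list were 2 without BSA replicate 3 or with voom weights and 3 without AGEs replicate 3, and 1 rose with the length trend removed. The heat shock element, taken as GAA, TTC and GAA with 2 bases between each, was a motif added after the results were seen. Among cytosolic and mitochondrial chaperones together it stood on either strand in 2 of 16 called and 2 of 16 uncalled promoters, beside 0.336% of tested genes and 0.597% of all promoters. The called ones were Hspa8 and Hsph1. The uncalled ones were the mitochondrial genes Hspd1 and Hspe1, which lie on opposite strands and share the same matched stretch.

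Calls among proteasome genes were all small rises. Of 43 tested subunits and activators 22 rose and 0 fell, where 6.05% of all tested genes rose and 21.7% of those at 100 FPKM or above. The median was 0.22, 6 of the 43 were below 0, and between 17 and 23 rose when each empty-vector library was left out, with 1 faller without AGEs replicate 3. The AGEs libraries lay wholly above the BSA libraries in 25 and wholly below in 1. Of all tested genes 12.8% lay wholly above and 19.8% wholly below, and of the 1169 with a mean of at least 100 FPKM 384 and 205 did. Their median level was 261 FPKM and their median gene model 1368 bases, and 21 rose with the length trend removed. Of 17 core particle subunits 9 rose, among them Psma1, which read 224, 222 and 220.3 FPKM with BSA and 280.0, 289 and 281 with AGEs. Those sets were tight and separate (0.35, SE 0.05, limma adjusted p = 0.00219). Of 26 regulatory particle subunits and activators 13 rose. The ATPase Psmc1 went from 457 ± 14.2 to 575 ± 19.0 FPKM, the scaffold Psmd3 from 1026 ± 5.20 to 1231 ± 25.8, and Adrm1, a ubiquitin receptor, from 379 ± 7.62 to 535 ± 23.3. Adrm1 changed the most after Psmb8 (0.49, SE 0.04, limma adjusted p = 0.000133). Psmb8, the immunoproteasome subunit induced by interferon, read 7.76, 8.80 and 7.68 FPKM with BSA and 11.1, 14.6 and 11.2 with AGEs (0.55, limma adjusted p = 0.0417, 0.0536 with replicate as a block, and not called without BSA replicate 1, 2 or 3 or AGEs replicate 1 or 2, at 0.132 without AGEs replicate 2). Psmb5, a catalytic subunit of the core, was not called (86.2 ± 2.01 and 86.1 ± 10.8 FPKM). Nfe2l1, the factor that drives these genes when the proteasome is inhibited, fell from 264 ± 11.5 to 218 ± 5.56 FPKM (-0.27, limma adjusted p = 0.00276), as did its small Maf partner Mafg (77.7 ± 2.33 to 59.5 ± 6.68 FPKM). Their element, spelled TGACNNNGC and also added later, stood on either strand in 3 of 18 called and 5 of 21 uncalled proteasome promoters, beside 12.9% of tested genes and 10.2% of all promoters. Of 67 tested ubiquitin-conjugating enzymes and ubiquitin-specific proteases 10 rose and 1 fell, Usp34 (-0.79, limma adjusted p = 0.0421, but not called without BSA replicate 1, 2 or 3 or AGEs replicate 1 or 2, at 0.141 without BSA replicate 3). The risers were 17 with median-of-ratios scaling, and 3, 4, 5, 5 and 4 without BSA replicates 1, 2 and 3 and AGEs replicates 1 and 2. The fallers were 10 without AGEs replicate 3, 6 with voom weights, 3 with replicate as a block, and 0 after quantile normalization or without BSA replicate 1 or 2 or AGEs replicate 1 or 2.

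**Figure D4:**
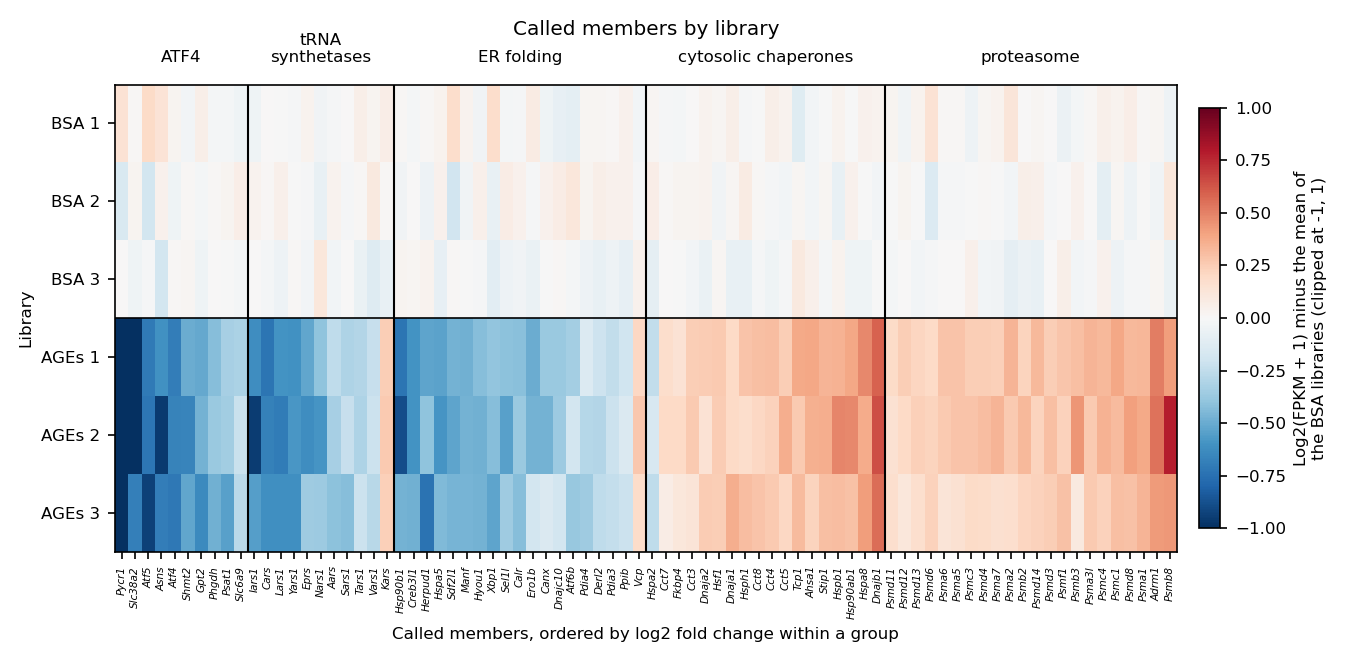
Called members of 5 groups (columns) in the 6 empty-vector libraries (rows), coloured by log2(FPKM + 1) minus the mean of the BSA libraries and clipped at -1 and 1. The ATF4, tRNA synthetase and endoplasmic reticulum blocks are blue in all 3 AGEs libraries apart from Kars and Vcp, and the cytosolic chaperone and proteasome blocks are red apart from Hspa2.

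RNA processing genes changed in both directions. Among hnRNPs and the spliceosome core, 24 of 66 tested genes rose and 8 fell, with a median of 0.09 and a median level of 188 FPKM. Over all tested genes 6.05% rose and 8.92% fell, and over those with a mean of at least 100 FPKM 21.7% and 10.3% did. Of 35 core members 15 rose and 3 fell, and of 31 hnRNPs and their relatives 9 rose and 5 fell. In the latter set median-of-ratios scaling gave 12 risers and 1 faller, quantile normalization 6 and 7, and leaving out AGEs replicate 3 gave 8 and 9. Sf3b3, of the complex that binds the branch point, read 105, 106 and 104 FPKM with BSA and 159.8, 162 and 164 with AGEs. It is among the 8 genes with the smallest p (0.62, SE 0.04, limma adjusted p = 5.88e-05), as is the export helicase Ddx39b, from 205 ± 4.54 to 308 ± 13.4 FPKM (0.58). Hnrnpa1, a splicing repressor, went from 701 ± 10.8 to 967 ± 17.5 FPKM, and Snrpb, of the Sm ring, from 718 ± 7.41 to 931 ± 45.3 FPKM. The falls are less firm. Rbm5 went from 58.1 ± 2.18 to 40.6 ± 0.734 FPKM (-0.51, limma adjusted p = 0.000777), but the fallers were 1 after median-of-ratios scaling and 10 after quantile normalization. They were 3, 1, 4, 1, 2 and 15 when BSA replicates 1, 2 and 3 and AGEs replicates 1, 2 and 3 were left out.

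The SR proteins, activators of splicing, and their kinases went both ways, with 5 of 30 higher and 6 lower. Their median level was 75.1 FPKM, and 6.05% of all tested genes rose and 8.92% fell. Srsf5 read 340.4, 351 and 332 FPKM with BSA and 205, 218 and 234 with AGEs, without overlap (-0.64, SE 0.05, limma adjusted p = 0.000138). Tra2a went from 28.0 ± 2.82 to 16.3 ± 0.953 FPKM (-0.74), and Son, a nuclear speckle scaffold, from 47.7 ± 1.76 to 33.8 ± 4.82. Prpf4b, a splicing kinase, had the deepest fall, by 0.92, with a limma adjusted p of 0.0164, but was not called without BSA replicate 3 or AGEs replicate 1 or 2 (0.06 without AGEs replicate 1). Of the CLK kinases, which phosphorylate SR proteins, Clk3 rose from 313 ± 4.95 to 424 ± 10.2 FPKM (0.44, limma adjusted p = 0.000242). Clk4 rose from 22.1 ± 2.98 to 34.6 ± 6.38 FPKM (0.62, limma adjusted p = 0.0131, but 0.0503 without BSA replicate 3 and 0.0521 without AGEs replicate 1). Without AGEs replicate 1 the risers of this list were 3. A further pair of genes whose transcripts are known to be controlled through retained introns was lower in every AGEs library. Ogt, which adds N-acetylglucosamine to intracellular proteins, read 19.3, 18.6 and 18.7 FPKM with BSA and 7.17, 6.13 and 8.78 with AGEs. Mat2a, which makes S-adenosylmethionine, read 238, 261 and 231 FPKM with BSA and 138, 128 and 134 with AGEs (-0.86, SE 0.05, limma adjusted p = 5.88e-05). The table gives 1 value per gene, so introns cannot be read from it. Oga, which removes the sugar that Ogt adds, was not called (2.41 ± 0.735 and 3.13 ± 0.629 FPKM), and among 12 hexosamine pathway genes the calls were Ogt and Uap1l1, which fell from 24.7 ± 1.72 to 16.0 ± 0.965 FPKM.

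Translation initiation factors also changed in both directions, with 13 of 45 higher and 7 lower and a median of -0.00. Their median level was 221 FPKM. Of all tested genes 6.05% rose and 8.92% fell, and of those with a mean of at least 100 FPKM 21.7% and 10.3% did. Eif4b, which stimulates the cap-binding helicase, read 281, 283 and 279 FPKM with BSA and 398, 390.0 and 406 with AGEs. The groups were narrow and far apart (0.50, SE 0.04, limma adjusted p = 6.46e-05). The helicase Eif4a1 went from 2192 ± 20.4 to 2695 ± 85.9 FPKM, whereas Eif4g3, a scaffold, went from 17.2 ± 0.875 to 11.0 ± 0.153 and Eif2s2, of the factor that brings the initiator tRNA, from 595 ± 17.0 to 468 ± 35.7. Without BSA replicate 1, AGEs replicate 1 or AGEs replicate 2 the risers were 8, 7 and 8, and without BSA replicate 1 or AGEs replicate 1, or with median-of-ratios scaling, the fallers were 4. Of 69 cytosolic ribosomal protein genes 0 rose and 3 fell (median -0.06), and of 38 mitochondrial ones 2 rose and 1 fell. The cytosolic ribosomal genes had a median level of 383 FPKM, and their fallers were 9 with the length trend removed, 5 after quantile normalization, and 1 with median-of-ratios scaling or without BSA replicate 1, BSA replicate 3, AGEs replicate 2 or AGEs replicate 3. Without AGEs replicate 3 the risers were 3. The mitochondrial ribosomal risers were 3 with median-of-ratios scaling and 1 with the length trend removed or without BSA replicate 1 or 3 or AGEs replicate 1, 2 or 3. None fell after quantile normalization, with voom weights, or without BSA replicate 1, 2 or 3 or AGEs replicate 1 or 3, where limma with all libraries called 1.

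**Figure D5:**
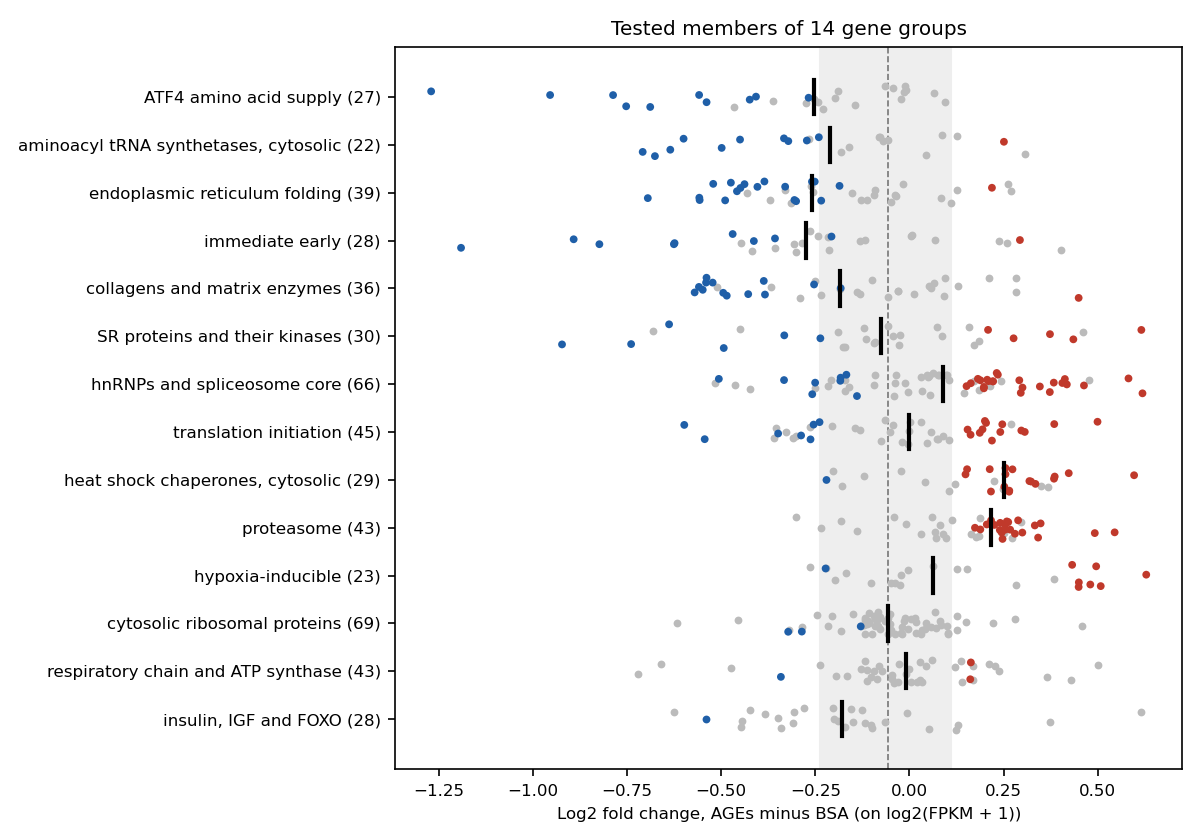
Log2 fold change, AGEs minus BSA, of the tested members of 14 gene groups, with called members in red or blue, the others in grey and the median of each group as a black bar. The number of tested members stands beside each name, and the grey band and dashed line give the range between the quartiles of all tested genes and their median of -0.06.

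Around Txnip, calls among glucose-sensing and hypoxia-inducible genes were mostly rises, while the list medians lay near 0. Of 15 tested genes of the arrestin-domain, thioredoxin and glucose-sensing list 5 rose and 1 fell, at a median of -0.01 and with 8 below 0. Over all tested genes 6.05% rose and 8.92% fell. Arrdc3, an arrestin-domain relative of Txnip that sends receptors to lysosomes, read 1.58, 2.46 and 2.52 FPKM with BSA and 4.29, 4.09 and 5.69 with AGEs (0.84, SE 0.17, limma adjusted p = 0.00938). It rests on 53 fragments with BSA and 119 with AGEs. Slc2a1, the glucose transporter GLUT1, read 94.4, 92.3 and 99.0 FPKM with BSA and 127, 129 and 130.1 with AGEs, without overlap. Arrdc1 rose by 0.24 (limma adjusted p = 0.0161, and 0.0569 without BSA replicate 2). Hk1, hexokinase, rose by 0.21 (limma adjusted p = 0.0406), but was not called with replicate as a block (0.0618) or when any 1 of the 9 libraries was left out (0.055 to 0.128). Mlxip, a glucose-sensing partner of MLX known to drive Txnip, went from 3.79 ± 0.693 to 2.22 ± 0.200 FPKM (-0.57, limma adjusted p = 0.0452, 0.0616 with the block, 0.057 with median-of-ratios scaling, and not called without BSA replicate 1 or 3 or AGEs replicate 1 or 2, at 0.109 to 0.144). Without BSA replicate 2 the risers of this list were 3. The fallers, Mlxip alone with all libraries, were 0 with median-of-ratios scaling, quantile normalization, replicate as a block or the length trend removed, 0 without BSA replicate 1, AGEs replicate 1 or AGEs replicate 2, and 2 with voom weights or without AGEs replicate 3. Of 23 hypoxia-inducible genes 7 rose and 1 fell, at a median of 0.06 and with 11 below 0, and 4 rose without AGEs replicate 1. The fallers were 0 with median-of-ratios scaling, quantile normalization or replicate as a block, and without BSA replicate 1 or 2 or AGEs replicate 1 or 2. Egln1, the oxygen-sensing prolyl hydroxylase, read 52.2, 49.9 and 42.6 FPKM with BSA and 78.6, 71.6 and 74.7 with AGEs (0.63, limma adjusted p = 0.00125). Hif1a, the factor that it marks for decay, was not called (35.6 ± 1.33 and 31.7 ± 4.65 FPKM).

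Matrix genes were mostly lower. Of 36 collagens, glycoproteins and their processing enzymes 13 fell and 1 rose, with a median of -0.18 and a median gene model of 3646.5 bases. Over all tested genes 8.92% fell and 6.05% rose. The fallers were 9 after median-of-ratios scaling, 7 after quantile normalization, 9 with replicate as a block, 10 with the length trend removed, and 7, 6, 6, 8 and 8 without BSA replicates 1, 2 and 3 and AGEs replicates 1 and 2. Without AGEs replicate 3 the risers were 2. Col5a1, a fibrillar collagen that sets fibril width, read 35.8, 37.5 and 35.5 FPKM with BSA and 23.5, 24.2 and 25.2 with AGEs. The groups were narrow and separate (-0.56, SE 0.06, limma adjusted p = 0.000602), and its partner Col5a2 went from 36.8 ± 4.10 to 25.3 ± 2.07 FPKM. Fn1, fibronectin, went from 19.8 ± 1.24 to 14.9 ± 0.543 FPKM (-0.39, limma adjusted p = 0.00911, but not called with the length trend removed, at 0.104 with the replicate block added). The riser was P4ha1, a collagen prolyl hydroxylase that low oxygen induces, from 38.7 ± 1.41 to 53.2 ± 2.67 FPKM. Proline for collagen is made by Pycr1, which fell as given above. Thbs3 fell beside Thbs1, from 16.1 ± 1.91 to 10.4 ± 1.46 FPKM. Of the CCN genes that YAP drives, Ccn1 was not called (83.7 ± 2.44 and 84.6 ± 0.931 FPKM).

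Adhesion and cytoskeleton genes changed in both directions, where 6.05% of all tested genes rose and 8.92% fell. Of 29 integrin and focal adhesion genes 6 rose and 6 fell, and 3 fell with median-of-ratios scaling or quantile normalization, or without BSA replicate 2, BSA replicate 3 or AGEs replicate 2. Flna, the actin cross-linker filamin, read 463, 493 and 486 FPKM with BSA and 367, 363 and 343 with AGEs (-0.43, limma adjusted p = 0.000242). The vitronectin receptor subunit Itgb5 rose from 149 ± 6.66 to 197 ± 4.81 FPKM, while the common subunit Itgb1 fell from 523 ± 18.8 to 442 ± 20.9. Of 45 actin and myosin genes 7 rose and 5 fell, and the fallers were 2, 2, 1 and 2 without BSA replicates 1 and 3 and AGEs replicates 1 and 2. Quantile normalization gave 4 risers and 8 fallers there, and removal of the length trend 6 and 8. Baiap2, which bends the membrane at protrusions, read 80.3, 101 and 81.6 FPKM with BSA and 145, 152 and 135 with AGEs (0.72, SE 0.11, limma adjusted p = 0.0021). The GTPase Rac1 went from 475 ± 16.6 to 591 ± 9.76 FPKM. Rock2, the kinase that RhoA activates, read 14.7, 13.5 and 20.1 FPKM with BSA and 5.75, 5.28 and 12.6 with AGEs, where both replicates numbered 3 were high (-1.02, limma adjusted p = 0.0267, but not called without BSA replicate 1 or 3 or AGEs replicate 1 or 2, at 0.0603 to 0.0944). Of 15 contractile genes and regulators Tpm2, a tropomyosin, fell and Foxs1, a forkhead factor of mural cells, rose, from 6.31 ± 0.537 to 11.7 ± 2.34 FPKM.

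Immediate early genes, the first targets of growth signals, were lower in most calls. Of 28 tested, 9 fell and 1 rose, with a median of -0.28, and 7 to 9 fell when each empty-vector library was left out. Over all tested genes 8.92% fell and 6.05% rose, with a median of -0.06. Egr3 read 21.9, 21.8 and 20.0 FPKM with BSA and 8.67, 7.72 and 9.88 with AGEs. Every AGEs library was under 10 FPKM and every BSA library at 20 FPKM or above (-1.19, SE 0.10, limma adjusted p = 0.000138). Its relative Egr2 went from 13.8 ± 1.64 to 7.00 ± 1.07 FPKM, whereas Egr1 rose from 222 ± 6.95 to 272 ± 12.5 FPKM (0.29, limma adjusted p = 0.00263). Without BSA replicate 2 or AGEs replicate 3 the risers were 2. Zfp36l1, which speeds mRNA decay, read 148, 143 and 150.5 FPKM with BSA and 94.0, 95.1 and 96.4 with AGEs (-0.63, SE 0.04, limma adjusted p = 5.88e-05). Myc went from 118 ± 3.37 to 88.4 ± 9.73 FPKM, Jun from 56.8 ± 2.13 to 44.2 ± 2.89, and Dusp6, a phosphatase that ERK induces and that dampens it, from 12.1 ± 0.735 to 7.52 ± 1.19. Fos was low and not called (5.39 ± 2.18 and 5.20 ± 0.886 FPKM).

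Growth and cell cycle genes were called in both directions, at 17.9% of replication, 21.1% of mitosis, 23.8% of brake and p53 and 38.5% of histone genes, where 15.0% of all tested genes were called. Of 39 replication genes 3 rose and 4 fell, and 1 rose without BSA replicate 1, AGEs replicate 1 or AGEs replicate 2. Pole, the leading-strand polymerase, went from 16.9 ± 0.932 to 10.0 ± 0.993 FPKM (-0.70, limma adjusted p = 0.00276), and the fallers of the list were 2 without BSA replicate 3. Of 38 mitosis genes 6 rose and 2 fell, and 3 rose without BSA replicate 2 or 3. The fallers were 1 without BSA replicate 1, 2 or 3 or AGEs replicate 1 or 2, with median-of-ratios scaling, after quantile normalization, with replicate as a block or with the length trend removed. Racgap1, of the cytokinesis machinery, went from 53.2 ± 2.90 to 68.1 ± 2.41 FPKM, and Cit, a kinase of the same step, from 5.47 ± 0.398 to 3.22 ± 0.0887 (limma adjusted p = 0.00937, and 0.0507 with replicate block and length trend removed). Of 21 cell cycle brakes and p53 targets 4 fell and 1 rose. Rbl2, the pocket protein p130 of resting cells, went from 12.3 ± 1.20 to 6.35 ± 1.18 FPKM, without overlap (-0.86, limma adjusted p = 0.00313). Dedd2, a death-effector protein, rose from 4.43 ± 1.60 to 8.77 ± 1.19 FPKM (0.88, limma adjusted p = 0.013). Of 13 histone genes the variants H3f3a, H3f3b and H3f3c rose, H3f3a from 476 ± 1.37 to 613 ± 19.6 FPKM. The limma adjusted p of H3f3b was 0.118 after quantile normalization and up to 0.0909 without BSA replicate 1 or 2 or AGEs replicate 1 or 2. The limma adjusted p of H3f3c was 0.0657 with replicate as a block and up to 0.134 without BSA replicate 1, 2 or 3 or AGEs replicate 1 or 2. The linker histone H1f4 read 10.9, 8.43 and 10.1 FPKM with BSA and 1.61, 4.59 and 1.13 with AGEs (-1.77, SE 0.31, limma adjusted p = 0.00487), on 95 and 24 fragments. The histone risers were 1 without BSA replicate 1 or 2 or AGEs replicate 1 or 2, and the fallers 1 without BSA replicate 2 or 3 or AGEs replicate 1 or 3. Quantile normalization gave 1 of each, and the length trend removed 2 risers and 3 fallers.

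Signalling and lipid groups differed in how many of their genes were called. The share was 3.57% of insulin, IGF and FOXO genes, 10.5% of NF-kB and cytokine genes, 20.0% of cholesterol and fatty acid genes, 22.9% of lysosome and autophagy genes and 39.1% of NRF2 genes, beside 15.0% of all. Of 28 insulin, IGF and FOXO genes 1 was called, Mtor, the growth kinase, from 15.1 ± 0.312 to 10.1 ± 1.11 FPKM (-0.54, limma adjusted p = 0.00602), and 6 fell without AGEs replicate 3, 4 with voom weights and 2 with replicate as a block. Of 19 NF-kB and cytokine genes 2 rose and 0 fell, and without BSA replicate 1 or 2 or AGEs replicate 1, 2 or 3 1 rose. Of 43 genes of the respiratory chain and the ATP synthase 2 rose and 1 fell, at a median of -0.01. The risers were 0 without BSA replicate 2 or 3 or AGEs replicate 1 or 2, 1 without BSA replicate 1, and the fallers 2 without AGEs replicate 1 or 2. Removal of the length trend gave 0 risers and 4 fallers, median-of-ratios scaling 4 and 1, and quantile normalization or replicate as a block 1 and 2. Of 30 genes of cholesterol and fatty acid synthesis 1 rose and 5 fell, and the fallers were 2 with median-of-ratios scaling or quantile normalization and 2, 2, 3, 3 and 3 without BSA replicates 1, 2 and 3 and AGEs replicates 1 and 2. Without BSA replicate 2 or 3 the risers were 0, and after quantile normalization 2. Acss2, which makes acetyl-CoA from acetate, read 76.2, 85.8 and 80.2 FPKM with BSA and 44.1, 45.0 and 40.3 with AGEs. The groups did not approach each other (-0.89, SE 0.06, limma adjusted p = 5.88e-05). Acaca, the first enzyme of fatty acid synthesis, went from 58.1 ± 3.42 to 38.5 ± 1.93 FPKM. Nr1h3, the oxysterol receptor LXR alpha, rose from 29.8 ± 0.502 to 40.5 ± 4.30 FPKM (0.43, limma adjusted p = 0.011). Pparg, another nuclear receptor, went from 253 ± 9.92 to 304 ± 10.2 FPKM. On the list of Pparg and its partners 2 of 20 tested genes rose and 1 fell, which is 15.0%, as over all tested genes. The 7 tested target genes on it held 0 calls, at a median of -0.21. Of 35 lysosome and autophagy genes 2 rose and 6 fell. The fallers were 3 with median-of-ratios scaling, and 3, 3, 3 and 2 without BSA replicates 1, 2 and 3 and AGEs replicate 1. The risers were 1 with replicate as a block, with voom weights, and without BSA replicate 1, 2 or 3 or AGEs replicate 2 or 3. Wipi1, which binds the forming autophagosome, fell from 21.3 ± 0.505 to 13.1 ± 1.92 FPKM (-0.67, limma adjusted p = 0.00469). Of 23 NRF2 antioxidant genes 4 rose and 5 fell, and the glutathione synthetase Gss fell from 295 ± 7.33 to 226 ± 7.47 FPKM. Without BSA replicate 2 or 3 the risers were 2, and without BSA replicate 3 or AGEs replicate 1 the fallers were 3. With median-of-ratios scaling 6 rose and 3 fell.

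Some of the deepest changes lay outside these groups. Septin3, a septin best known from neurons, read 29.6, 29.8 and 31.2 FPKM with BSA and 12.8, 11.6 and 10.6 with AGEs (-1.30, SE 0.09, limma adjusted p = 5.88e-05). Myof, a ferlin of membrane repair, read 45.4, 48.4 and 47.8 FPKM with BSA and 24.7, 21.6 and 24.6 with AGEs (-0.97, SE 0.07, limma adjusted p = 5.89e-05). In both, every AGEs library was lower than every BSA library. Sema4d, a semaphorin of cell guidance, went from 6.02 ± 0.922 to 2.14 ± 0.409 FPKM (-1.16, limma adjusted p = 0.00125), and Mpnd from 10.3 ± 0.814 to 4.48 ± 1.39 FPKM (-1.07). Dclk1, a microtubule-binding kinase, rose from 7.90 ± 0.875 to 13.0 ± 0.438 FPKM, and Iqcb1, a ciliary protein, from 6.28 ± 1.05 to 10.8 ± 1.08. The largest falls by size rest on few fragments: AC106663.4 had 44 with BSA and 9 with AGEs (-2.45), and AABR07053152.1 had 75 and 27 (-1.54). Pirt, on 59 and 19 fragments, had a limma adjusted p of 0.0202, but was not called without BSA replicate 1 or 3 or AGEs replicate 2 (0.0551 to 0.073).

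The CTSD group with AGEs stood at different places relative to these groups, gene by gene. It differs from the BSA group in both vector and treatment, and the values are set side by side without a test. Txnip stood at 11.0 ± 0.748 FPKM there, Ogt at 7.63 ± 1.04 and Slc38a2 at 25.7 ± 2.64, which are near the AGEs means of 10.1, 7.36 and 29.1 FPKM. Creb3l1 at 57.2 ± 0.980 FPKM, Acss2 at 118 ± 3.53 and Col5a1 at 47.6 ± 2.54 stood above both empty-vector groups. Phgdh at 402 ± 13.4 FPKM and Adrm1 at 385 ± 8.26 stood near the BSA means of 399 and 379 FPKM. Hspa8 at 369 ± 81.7 FPKM and Kars at 141 ± 6.54 stood below both.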

How the data were processed

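RNA sequencing of 9 libraries was analysed, 3 in each group. The authors deposited 1 table of FPKM values per gene, with gene identifiers of rat Ensembl. The submitters' processing notes name the build mm10, a mouse genome, so positions are printed as deposited, and the aligner and annotation are not stated. Whole fragments were recovered from the steps of the FPKM values, with 99.1 to 99.4% of the low values checked within 0.1 of a whole number. Values were analysed as log2(FPKM + 1) with limma 3.58.1 in R 4.3.3, fitted on all 9 libraries, with Benjamini-Hochberg adjustment over 8532 genes and a threshold of 0.05. Lists and figures used Python 3.11.15 with numpy 2.4.6, pandas 2.3.3, scipy 1.17.1 and matplotlib 3.10.9. The fit was tested on simulated data.

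The rule for named genes takes the 4 markers, the 12 largest rises and 12 largest falls with at least 5 FPKM and no overlap, the 8 smallest p-values, and up to 6 called members of each list by size of change. Further called list members, genes given as not called and AABR07052085.1 were chosen after their values were seen. The members and lists were chosen with earlier results of these data known. Libraries with the same replicate number deviated together from their group means, with correlations of 0.135, 0.142 and 0.152 for replicates 1, 2 and 3 of the BSA and AGEs groups. The main fit did not use this pairing, so counts, SEs and p-values given without a named setting are unpaired. The fit with replicate as a block, which does use it, is an alternative. Other alternatives were another pseudocount, no filter or a stricter one, median-of-ratios scaling, quantile normalization, the 6 empty-vector libraries alone, voom weights on recovered fragments, removal of the trend with gene length, and leaving out each library. Promoter sequences came from RefSeq (GRCr8), where 6249 tested genes matched by symbol. Members of lists were matched by the deposited symbol or, failing that, by the symbol on the list. Heat shock and antioxidant elements were added after the results were seen. Some items are not reported here.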

Additional observations from a re-analysis of the deposited data

How the results depend on the processing

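Leaving out 1 library at a time gave 760 to 1605 called genes, 314 to 533 of them higher and 446 to 1072 lower, against 1277, 516 and 761 with all libraries. The lowest count, 760, came without AGEs replicate 1 and the highest, 1605, without AGEs replicate 3. With replicate as a block, which respects the pairing, 1213 genes were called (474 higher and 739 lower), and the block ended the call of 21 of the 202 genes the naming rule takes. Those it ended among genes described above (Psmb8, Hk1, Mlxip and H3f3c) are given beside them, as are the empty-vector libraries without which a described gene was not called. Of the other settings, the 6 empty-vector libraries alone gave 928 calls and the fit on recovered fragments with voom weights 1546. Median-of-ratios scaling turned the balance to 749 higher and 523 lower, and quantile normalization gave 602 and 563. Of the 202 genes, 36 lost their call with the 6 empty-vector libraries alone, 31 without a filter, 31 after quantile normalization, 14 with median-of-ratios scaling, 12 with voom weights and 12 with the length trend removed. No called gene among the 202 reversed direction under any alternative run. Changes of sign in genes called in neither fit were not counted. Among genes described above, no filter ended the calls of H3f3c, Hspa8, Mlxip, Psmb8, Rock2 and Usp34. Quantile normalization ended those of Actb, Cct7, Ero1b, H3f3b, H3f3c, Hspa8, Mlxip, Slc6a9, Usp34, Vars1 and Vcp. The 6 libraries alone ended those of Cct7, Ero1b, H3f3c, Hk1, Mlxip, Rock2, Slc6a9, Usp34 and Vars1. Removing the length trend ended those of Fn1, H3f3c, Mlxip and Usp34, and with the block added also those of Arrdc1, Cit, Hk1 and Psmb8, though not that of Usp34. Leaving out a CTSD library ended those of Hk1, Usp34, H3f3c, Mlxip, Psmb8 or Vars1. Genes under 5 FPKM had few fragments, and 4.24% of them were called.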
